A study of Mus musculus with 6 samples.

Results

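The BMP and TGF-beta pathway was described here through 52 genes in the posterior part of Splotch null and wild-type mouse embryos. The members were taken by symbol from the annotation of the array's probes and fell into 5 classes by role, with 21 ligands, 10 receptors, 9 secreted or membrane antagonists and modulators, 8 Smads and 4 Id genes. A probe was named for 50 of the 52, and 47 of those gave a signal above background on 3 or more of the 6 arrays, which was the condition for testing, among 14459 genes tested in all. Gdf7 had no probe named for it, and the probe for Gdf1 was annotated to more than 1 gene, so neither was analysed here. Bmp5, Gdf5 and Inhbb were measured and not tested, because their probes lay above background on no array (Bmp5 and both Inhbb probes) or on 1 wild-type array (Gdf5).

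Total RNA was compared between 3 Splotch null and 3 wild-type samples of strain LMBc at embryonic day 9.5, each on 1 one-colour CodeLink Mouse Whole Genome bioarray. Splotch mice carry a mutated Pax3, which encodes a DNA-binding protein active in dorsal neural tube, somites and neural crest precursors. The labels gave neither the Splotch allele nor the number of embryos behind an array, and they did not explain the strain name, and each p-value therefore measures the spread between these samples alone, which may be technical in part. One label field named the anterior neural tube, while the tissue field and the dissection gave the posterior part. The embryo was cut just behind the forelimb, and everything caudal to the cut was used, so the RNA came from neural tube, somites, surface ectoderm, gut and other tissues together. In such bulk tissue, fewer cells of a type and less RNA per cell cannot be told apart.

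BMPs and TGF-betas are secreted dimers that bring together type I and type II serine/threonine kinase receptors on the cell surface. The type I receptor phosphorylates receptor Smads, those of the BMP branch being Smad1, Smad5 and Smad9 and those of the TGF-beta and activin branch Smad2 and Smad3, which enter the nucleus with Smad4. Id genes are direct targets of the BMP branch, and secreted proteins such as noggin and chordin bind BMPs outside the cell. In the closing spinal neural tube, BMPs come from the surface ectoderm and later from the roof plate, and BMP antagonists are needed for the neural plate to bend.

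Levels are given as log2(intensity + 50) after quantile normalization, called log2 intensity below, and every difference is Splotch null minus wild type on that scale. The added constant makes the difference of a dim gene smaller than the difference in signal, and the level of one probe cannot be set against that of another.

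Before the pathway, 3 arrays have to be named. Splotch null 3 and wild type 1 were the 2 brightest, with a median raw intensity of 121.1 and 116.3, against 84.3 to 99.7 on the other 4. They stood apart after normalization too. For 47.8% of the genes measured on all 6 arrays, the 2 brightest arrays lay both above or both below all the others. Since they are 1 of each genotype, differences within that pair and within the other 4 are given beside the leading results. Splotch null 2 stood out for markers of the yolk sac and visceral endoderm. The mean log2 intensity of 9 markers of those tissues was 11.28 on that array, against 7.49 and 8.24 on the other null arrays and 8.09 to 8.63 on the wild-type arrays. The mean of 7 gut endoderm markers was also highest there, at 8.62, against 8.02 to 8.36 on the other arrays. Which tissue gave this RNA was not tested. The endoderm receptor gene Amn was above background on Splotch null 2 and on no other array, and Alb was above background on none. The same array had the lowest mean of 8 neural tube markers, 8.28, against 9.61 and 10.17 on the other null arrays and 9.15 to 9.72 on the wild-type arrays. Of 11 tested markers of presomitic mesoderm and tail bud, 7 had a higher and 4 a lower mean in Splotch null. Among all genes 45% were lower. None of these markers had an unadjusted p under 0.05. Msgn1 ran from 8.793 to 9.25 in Splotch null and from 8.57 to 8.789 in wild type, without overlap. Fgf17 did not overlap either, at 7.36 to 7.49 in Splotch null and 7.12 to 7.31 in wild type. Of all genes, 3.21% lay higher on every null array. The tail bud regulator Cdx2 overlapped, with 11.06 to 11.44 in Splotch null and 11.03 to 11.20 in wild type, as did the 4 lower markers. Pax3 itself had a log2 intensity of 10.72, 10.52 and 10.63 on the null arrays and 10.02, 10.83 and 10.51 on the wild-type arrays. Its difference was 0.17 (SE 0.21), and that of a second, dimmer Pax3 probe was -0.09 (SE 0.20). The genotypes overlapped on both probes.

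No member passed an adjusted p of 0.05 in the comparison of the genotypes (limma with Benjamini-Hochberg adjustment over all probes), and neither did any other gene, so 0% of all genes were called. With an unadjusted p under 0.05, 3 of the 47 members stood out: Bmp3 and Bmp7 were lower in Splotch null and Id4 was higher. Among all genes 1.43% had such a p, 0.422% lower and 1.01% higher in Splotch null. Of the 44 members measured on every array, 3 lay lower on every null array than on any wild-type array (Bmp3, Bmp7 and Nog), where 1.88% of all genes did so. In the other direction 1 member, Id4, lay higher on every null array, where 3.21% of all genes did so. Both directions together made 4 of 44 members, against 5.09% of all genes. The median difference over the 47 members was -0.07, with 29 of 47 (61.7%) below 0, beside a median of 0.02 over all genes with 45% below 0. Under array weights the median of the members was -0.00 and 51.1% lay below 0, beside a median of 0.04 over all genes with 41.5% below 0. The median SE of a member was 0.15, and the 95% confidence intervals reached from 0.27 to 0.97 on either side of the estimate, so differences smaller than that could not be told from 0.

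**Figure D1:**
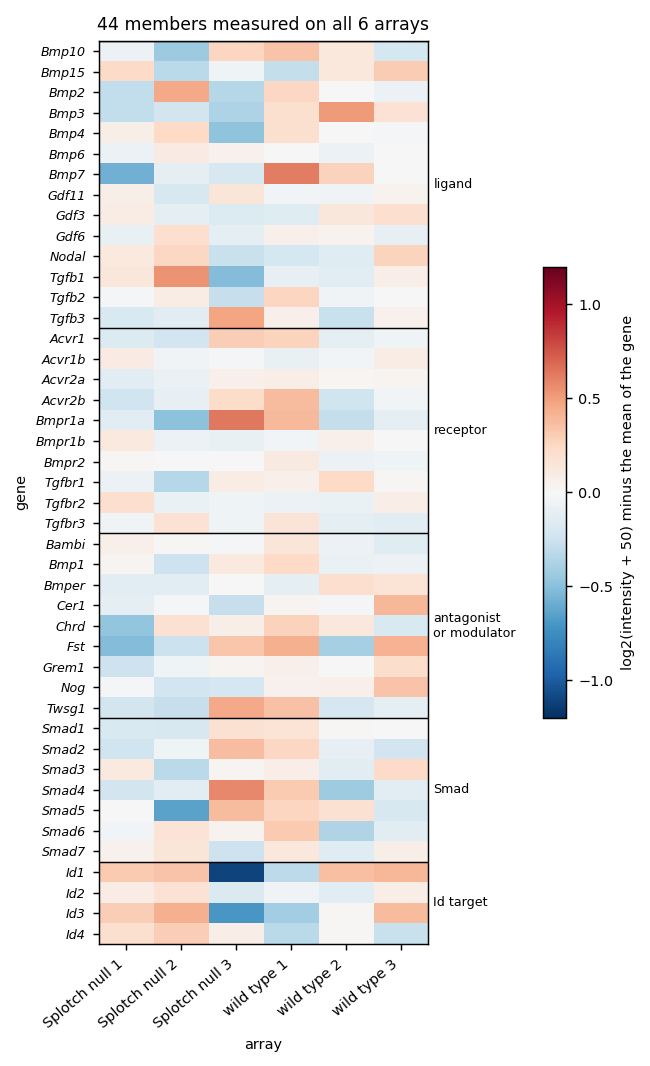
Heat map of the 44 members measured on all 6 arrays, 1 row per gene grouped by class and 1 column per array, with the Splotch null arrays on the left. Colour shows log2(intensity + 50) minus the mean of the gene over the 6 arrays. Id1 and Id3 were lowest on Splotch null 3 and wild type 1, while Smad4 and Bmpr1a were highest on those 2 arrays.

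**Figure D2:**
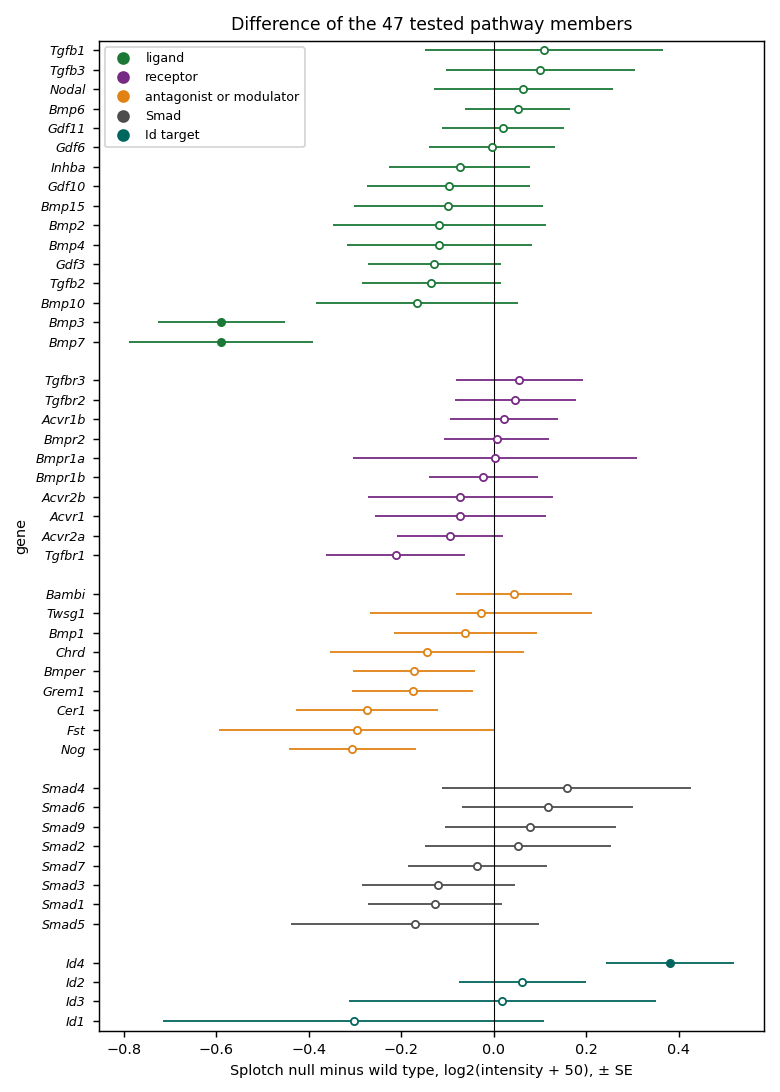
Splotch null minus wild type of log2(intensity + 50) for the 47 tested members, with SE bars, grouped and coloured by class. Filled points had an unadjusted limma p under 0.05, which were Bmp3 and Bmp7 at -0.59 each and Id4 at 0.38, and no point passed the adjusted threshold.

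Among the ligands, 11 of the 16 tested were lower and 5 higher in Splotch null, with a median difference of -0.10 and a range from -0.59 to 0.11. Bmp3, a divergent family member that binds activin type II receptors and opposes other BMPs, had a log2 intensity of 6.73, 6.81 and 6.67 on the null arrays and 7.22, 7.54 and 7.21 on the wild-type arrays. Every null array lay below every wild-type array. The means were 6.74 ± 0.074 in Splotch null and 7.33 ± 0.19 in wild type (SD, n = 3 each). The difference of Bmp3 was -0.59, its SE 0.14 and its 95% confidence interval -0.91 to -0.27, at an unadjusted limma p of 0.00331 and an adjusted p of 1. Within the brightest pair Bmp3 differed by -0.56, and over the remaining 4 arrays by -0.60. It had an unadjusted p under 0.05 in the fit with all arrays and in all 20 alternatives. Its size followed the constant added before the logarithm, at -0.85 with 10 and -0.28 with 200. A probe for a Bmp3 expressed sequence tag was not above background on any array.

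Bmp7, a ligand made in surface ectoderm, notochord and roof plate, had a log2 intensity of 10.36, 10.82 and 10.75 on the null arrays and 11.55, 11.21 and 10.93 on the wild-type arrays. The genotypes did not overlap, and the gap between the highest null array and the lowest wild-type array was small beside the spread within each genotype. The means were 10.64 ± 0.25 in Splotch null and 11.23 ± 0.31 in wild type (SD, n = 3 each). This gave a difference of -0.59, an SE of 0.20 and a 95% confidence interval of -1.06 to -0.12, at an unadjusted limma p of 0.0205 and an adjusted p of 1. A second Bmp7 probe had 9.07, 9.65 and 9.08 on the null arrays and 9.95, 9.50 and 9.52 on the wild-type arrays. On this probe Splotch null 2 lay above 2 wild-type arrays, and the difference was -0.39 (SE 0.21). The unadjusted p of the first probe was no longer under 0.05 without Splotch null 1 (difference -0.45), without wild type 1 (-0.43) or without wild type 2 (-0.60). Within the brightest pair it differed by -0.80, and over the remaining 4 arrays by -0.48.

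**Figure D3:**
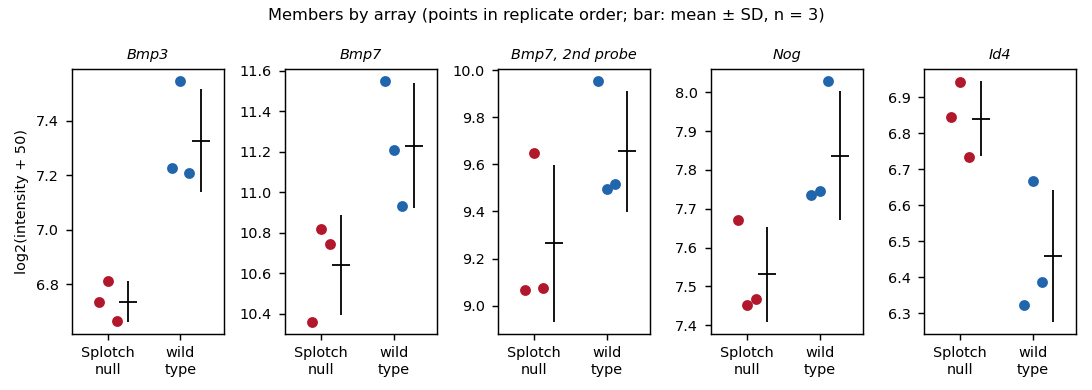
Log2(intensity + 50) of Bmp3, of both Bmp7 probes, of Nog and of Id4, with the 3 Splotch null arrays on the left and the 3 wild-type arrays on the right of each panel. Bars give the mean ± SD of each genotype, and each panel has its own axis, which does not start at 0. The genotypes overlap only on the second Bmp7 probe, where Splotch null 2 reached 9.65.

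For the other BMP ligands of the caudal embryo the genotypes overlapped. Bmp4, a ligand of posterior mesoderm and ectoderm, had a log2 intensity of 10.56, 10.73 and 10.01 on the null arrays and 10.69, 10.49 and 10.47 on the wild-type arrays. Splotch null 3 was the lowest array and Splotch null 2 the highest, so the genotypes overlapped fully. Its difference was -0.12 (SE 0.20, 95% confidence interval -0.59 to 0.35), and it was 0.09 without Splotch null 3. Within the brightest pair Bmp4 differed by -0.68, and over the remaining 4 arrays by 0.16. Bmp2, which the surface ectoderm makes during spinal closure, had 9.50, 10.25 and 9.45 on the null arrays and 10.04, 9.80 and 9.72 on the wild-type arrays. Splotch null 2, the array with the highest yolk sac markers, was the highest. The difference of Bmp2 was -0.12 (SE 0.23), and -0.11 (SE 0.18) on a second probe that was unusable on Splotch null 3. Gdf6, a ligand of the dorsal ectoderm and roof plate, ran from 9.17 to 9.49 in Splotch null and from 9.19 to 9.35 in wild type, with a difference of -0.00 (SE 0.14). Bmp6 differed by 0.05 (SE 0.11), with its confidence interval from -0.21 to 0.32. Bmp10, known from the embryonic heart, had 7.82, 7.46 and 8.15 on the null arrays and 8.23, 8.02 and 7.68 on the wild-type arrays, with the lowest array null and the highest wild type. It differed by -0.17 (SE 0.22), and Bmp15, known from the oocyte, by -0.10 (SE 0.20). Each of these last genes had a second probe that was above background on no array. The Bmp3 relative Gdf10 differed by -0.10 (SE 0.18), with wild type 2 unusable.

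Ligands of the TGF-beta, nodal and activin branch were also spread within each genotype as widely as between them. Tgfb1 had a log2 intensity of 8.53, 8.93 and 7.87 on the null arrays and 8.29, 8.25 and 8.47 on the wild-type arrays. The highest and the lowest array were both null, and the highest was Splotch null 2. The difference of Tgfb1 was -0.42 within the brightest pair and 0.37 over the remaining 4 arrays. With all arrays it was 0.11 (SE 0.26), and that of Tgfb3 was 0.10 (SE 0.21). Tgfb2 had 8.13, 8.24 and 7.88 on the null arrays and 8.41, 8.11 and 8.14 on the wild-type arrays. Splotch null 3 was lowest, wild type 1 highest and the rest intermixed, for a difference of -0.14 (SE 0.15). Nodal, the ligand of mesoderm induction and left-right asymmetry, differed by 0.06 (SE 0.19). Gdf11, which sets axial identity in the tail bud, differed by 0.02 (SE 0.13). Gdf3, a nodal-like ligand of the early embryo, had 6.97, 6.77 and 6.72 on the null arrays and 6.74, 7.02 and 7.09 on the wild-type arrays. Its lowest values in each genotype were those of the 2 brightest arrays, and the difference was -0.13 (SE 0.14). Inhba, which encodes a subunit of activin, differed by -0.07 (SE 0.15), with wild type 1 unusable.

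All 10 receptors were tested, 5 were higher and 5 lower in Splotch null, and the genotypes overlapped for each of them. Their median difference was -0.01, with a range from -0.21 to 0.06. Among receptors with the narrowest intervals, the type II receptor Bmpr2 differed by 0.01 (SE 0.11, 95% confidence interval -0.26 to 0.27) and the type I receptor Bmpr1b by -0.02 (SE 0.12, -0.30 to 0.25). The activin receptor Acvr1b differed by 0.02 (SE 0.12). Acvr2a, an activin type II receptor, had 8.28, 8.32 and 8.47 on the null arrays and 8.48, 8.43 and 8.44 on the wild-type arrays. Splotch null 3 lay among the wild-type arrays and the other null arrays just below them, for a difference of -0.09 (SE 0.11). The lowest value was that of the TGF-beta type I receptor Tgfbr1, with a log2 intensity of 6.67, 6.40 and 6.83 on the null arrays and 6.80, 6.98 and 6.76 on the wild-type arrays. Only Splotch null 1 and 2 lay below all wild-type arrays, and the difference was -0.21 (SE 0.15). The co-receptor Tgfbr3, betaglycan, had 7.05, 7.28 and 7.05 on the null arrays and 7.26, 6.99 and 6.97 on the wild-type arrays. One array of each genotype stood above the rest, and the difference was 0.06 (SE 0.14). Acvr1, a type I receptor for BMPs, had 9.95, 9.88 and 10.41 on the null arrays and 10.39, 9.9998 and 10.06 on the wild-type arrays, highest on the brightest pair. Its difference was -0.07 (SE 0.18) and that of Acvr2b -0.07 (SE 0.20). Tgfbr2, the TGF-beta type II receptor, differed by 0.05 (SE 0.13), with a second probe at 0.03 (SE 0.15). Bmpr1a, the main BMP type I receptor of the early embryo, differed by 0.00 (SE 0.31) and was highest on the 2 brightest arrays.

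Of the 9 antagonists and modulators 8 had a lower mean in Splotch null, where 45% of all genes did, with a median difference of -0.17 and a range from -0.31 to 0.04. No member of the class had an unadjusted p under 0.05. Noggin, encoded by Nog, binds BMPs in the extracellular space, and mouse embryos without it have spinal neural tube defects. Nog had a log2 intensity of 7.67, 7.45 and 7.47 on the null arrays and 7.74, 7.75 and 8.03 on the wild-type arrays. Every null array lay below every wild-type array, by a small margin between Splotch null 1 and wild type 1. The means were 7.53 ± 0.12 in Splotch null and 7.84 ± 0.17 in wild type (SD, n = 3 each). Nog differed by -0.31, with an SE of 0.14 and a 95% confidence interval of -0.63 to 0.02, at an unadjusted limma p of 0.0609 and an adjusted p of 1. Within the brightest pair it differed by -0.27, over the remaining 4 arrays by -0.32, and by -0.21 without wild type 3, the array with the highest level. For Nog, Bmp3, Bmp7 and Id4 the exact two-sided permutation p was 0.1, the smallest that 3 arrays against 3 allow. Because their genotypes did not overlap, leaving out arrays could change the size of their differences but not the sign.

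Cer1, a secreted antagonist of nodal and BMPs, had 6.55, 6.64 and 6.38 on the null arrays and 6.70, 6.64 and 7.06 on the wild-type arrays. Splotch null 2 and wild type 2 were level, and the difference was -0.27 (SE 0.15). Grem1, an antagonist of BMPs in somites and limb, had 6.91, 7.11 and 7.19 on the null arrays and 7.22, 7.15 and 7.36 on the wild-type arrays. Splotch null 3 lay above wild type 2, and the difference was -0.18 (SE 0.13). Bmper, which binds BMPs and modulates their access to receptors, had 6.46, 6.47 and 6.59 on the null arrays and 6.49, 6.79 and 6.75 on the wild-type arrays, a difference of -0.17 (SE 0.13). Within the brightest pair it differed by 0.11, and over the remaining 4 arrays by -0.31. Follistatin, encoded by Fst, binds activins, and its log2 intensity was 7.99, 8.26 and 8.85 on the null arrays and 8.94, 8.12 and 8.93 on the wild-type arrays. Levels near 8 and near 9 occurred in both genotypes, and the difference was -0.30 (SE 0.30), at -0.09 within the brightest pair and -0.40 over the remaining 4 arrays. Chordin, encoded by Chrd, differed by -0.14 (SE 0.21) and was above background on 2 arrays of each genotype. The chordin-cleaving protease Bmp1 differed by -0.06 (SE 0.15), the chordin partner Twsg1 by -0.03 (SE 0.24), and the pseudoreceptor Bambi, alone above 0, by 0.04 (SE 0.12).

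Smads split evenly, 4 higher and 4 lower in Splotch null, with a median difference of 0.01 and a range from -0.17 to 0.16. Of the BMP branch, Smad1 had a log2 intensity of 9.82, 9.81 and 10.19 on the null arrays and 10.17, 10.02 and 10.01 on the wild-type arrays. Splotch null 1 and 2 lay below all wild-type arrays and Splotch null 3 above them, and the difference was -0.13 (SE 0.14). Smad5 had 8.30, 7.66 and 8.68 on the null arrays and 8.56, 8.48 and 8.11 on the wild-type arrays. Splotch null 2 alone set its sign, since the difference was -0.17 (SE 0.27) with all arrays and 0.11 without that array. Smad9 differed by 0.08 (SE 0.19), with wild type 1 unusable. Of the TGF-beta branch, Smad2 differed by 0.05 (SE 0.20). Smad3 had 6.91, 6.47 and 6.83 on the null arrays and 6.88, 6.66 and 7.02 on the wild-type arrays, with Splotch null 2 lowest, and differed by -0.12 (SE 0.17). The shared Smad4 differed by 0.16 (SE 0.27). The inhibitory Smads are themselves induced by the pathway and feed back on it, and Smad7 differed by -0.04 (SE 0.15). Smad6 had 9.97, 10.17 and 10.05 on the null arrays and 10.32, 9.65 and 9.88 on the wild-type arrays. The wild-type arrays enclosed all null arrays, and the difference was 0.12 (SE 0.19).

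Id proteins lack a DNA-binding region and hold basic helix-loop-helix factors inactive. Id1, Id2 and Id3 are widely used as readouts of BMP signalling, and Id4 is a gene of neural progenitors. Id4 had a log2 intensity of 6.85, 6.94 and 6.73 on the null arrays and 6.32, 6.67 and 6.39 on the wild-type arrays. Every null array lay above every wild-type array, and wild type 2 was close to Splotch null 3. The means were 6.84 ± 0.10 in Splotch null and 6.46 ± 0.18 in wild type (SD, n = 3 each). Id4 differed by 0.38 (SE 0.14, 95% confidence interval 0.05 to 0.71), at an unadjusted limma p of 0.0281 and an adjusted p of 1. Within the brightest pair it differed by 0.41, and over the remaining 4 arrays by 0.37. The probe was dim. It lay above background on 3 null and 2 wild-type arrays, so the null arrays alone were enough for it to be tested. The difference was 0.65 with an added constant of 10 and 0.15 with 200, and the unadjusted p was above 0.05 with the constant of 200 and when Splotch null 1, Splotch null 2, wild type 1 or wild type 3 was left out.

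For the BMP readouts Id1, Id2 and Id3 the genotypes overlapped. Id1 had a log2 intensity of 11.61, 11.64 and 10.18 on the null arrays and 10.99, 11.66 and 11.70 on the wild-type arrays. The 2 low values were those of the 2 brightest arrays, 1 of each genotype, and the other 4 lay within 0.10 of each other. Id3 had 12.45, 12.59 and 11.47 on the null arrays and 11.74, 12.18 and 12.54 on the wild-type arrays, with the same 2 arrays lowest. Id2 had 12.73, 12.81 and 12.47 on the null arrays and 12.59, 12.52 and 12.72 on the wild-type arrays, a narrow range in both genotypes. The difference between genotypes was -0.30 (SE 0.41) for Id1, 0.02 (SE 0.33) for Id3 and 0.06 (SE 0.14) for Id2. Over the 4 arrays other than the brightest pair it was -0.05 for Id1, 0.17 for Id3 and 0.15 for Id2. Without Splotch null 3 the difference of Id1 was 0.18.

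The promoters of 4 target genes are shown because the Id genes and Smad6 are where Smads are known to act directly. The reference used held no promoter of Id1, nor of Bmp3, Bmp7 or Nog. Each window runs from 250 bases before to 20 after the RefSeq start on GRCm38.p6. Capitals mark GTCTAGAC, a palindromic Smad box, or GGCGCC, a GC-rich palindrome bound by BMP Smads. Both motifs read the same on both strands and do not overlap each other. The windows lie at chr9:64022040-64022309 on the minus strand for Smad6, chr12:25096073-25096342 on the minus strand for Id2, chr4:136143572-136143841 on the plus strand for Id3 and chr13:48260866-48261135 on the plus strand for Id4.
Smad6: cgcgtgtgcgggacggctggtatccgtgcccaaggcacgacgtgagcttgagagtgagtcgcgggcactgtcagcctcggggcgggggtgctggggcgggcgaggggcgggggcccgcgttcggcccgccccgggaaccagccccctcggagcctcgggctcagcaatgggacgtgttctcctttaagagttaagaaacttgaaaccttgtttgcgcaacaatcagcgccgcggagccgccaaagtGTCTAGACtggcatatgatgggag
Id2: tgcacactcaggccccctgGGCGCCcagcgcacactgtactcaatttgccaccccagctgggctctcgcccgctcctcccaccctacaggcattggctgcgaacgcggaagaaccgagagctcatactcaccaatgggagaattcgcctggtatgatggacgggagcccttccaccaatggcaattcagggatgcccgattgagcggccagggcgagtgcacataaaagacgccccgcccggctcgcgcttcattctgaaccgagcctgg
Id3: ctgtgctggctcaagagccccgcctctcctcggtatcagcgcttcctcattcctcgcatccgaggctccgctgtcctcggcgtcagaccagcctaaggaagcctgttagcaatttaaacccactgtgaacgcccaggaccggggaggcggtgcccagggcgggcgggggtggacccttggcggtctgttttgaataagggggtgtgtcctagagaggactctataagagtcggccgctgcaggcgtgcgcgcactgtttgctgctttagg
Id4: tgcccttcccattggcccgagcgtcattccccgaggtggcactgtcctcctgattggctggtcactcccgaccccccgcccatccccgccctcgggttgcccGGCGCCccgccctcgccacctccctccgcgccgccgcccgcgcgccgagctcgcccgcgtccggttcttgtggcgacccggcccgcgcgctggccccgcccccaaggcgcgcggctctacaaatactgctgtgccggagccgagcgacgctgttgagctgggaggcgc

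GTCTAGAC was found in the Smad6 window alone among the 42 RefSeq windows of 36 members, and in 0.183% of 32851 windows of all genes. In Smad6 it began 4 bases before the start. GGCGCC was found in 10 of the 42 member windows (23.8%) and in 10.4% of all windows. It began 231 bases before the start in Id2 and 148 bases before it in Id4, and Id3 had neither motif in its window. The shorter Smad box CAGAC, also searched on both strands and not capitalised, was found in 18 of the 42 member windows (42.9%), Id3 among them, and in 45.4% of all windows. These matches are descriptions of the letters and do not show a site in use. The levels of Smad6, Id2 and Id3 overlapped between the genotypes, and those of Id4 did not.

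Several members were highest or lowest on the 2 brightest arrays, whatever the genotype. For 16 of the 44 members measured on every array (36.4%), Splotch null 3 and wild type 1 lay both above or both below the other 4 arrays, where 47.8% of all genes did so. Those above numbered 12 of 44 (22.5% among all genes) and those below numbered 4 (25.4% among all genes). Above were Bmpr1a, Smad4, Twsg1, Smad5, Smad2, Acvr2b, Bmp10, Acvr1, Tgfb3, Bmp1, Smad1 and Acvr2a. Bmpr1a had a mean log2 intensity of 8.50 on the 2 brightest arrays and 7.73 on the other 4, and Smad4 had 11.41 and 10.74. Below were Id1, Id3, Nodal and Gdf3. Id1 had a mean of 10.58 on the 2 brightest arrays and 11.65 on the other 4, and Id3 had 11.61 and 12.44. What made these arrays differ was not tested. Bmp3, Bmp7, Nog and Id4 could not split this way, because their genotypes did not overlap and the pair held 1 of each.

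**Figure D4:**
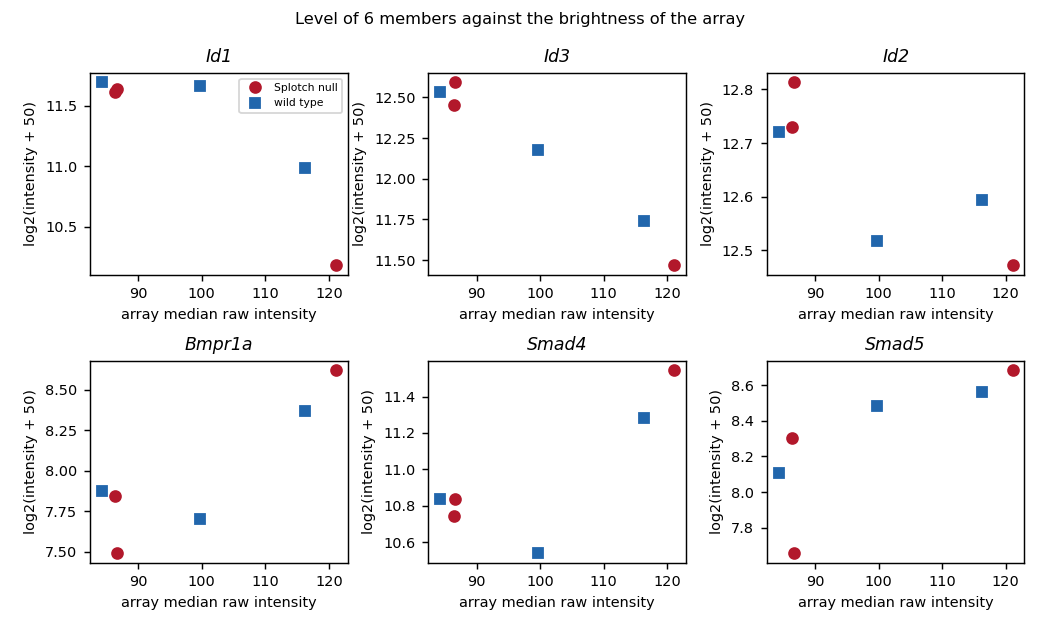
Log2(intensity + 50) of Id1, Id3, Id2, Bmpr1a, Smad4 and Smad5 against the median raw intensity of the array, with red circles for the 3 Splotch null arrays and blue squares for the 3 wild-type arrays. The 2 arrays on the right, 1 of each genotype, are lowest for Id1 and Id3 and highest for Bmpr1a, Smad4 and Smad5, and the vertical axes do not start at 0.

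Beyond the members, 49 of 62 other genes of the pathway were tested. None had an unadjusted p under 0.05, where 1.43% of all genes did. In Splotch null 28 were higher and 21 lower (42.9%), where 45% of all genes were lower. The median difference of these 49 genes was 0.01. The lowest value was that of Msx1, a homeobox target of BMPs in the dorsal neural tube, with a log2 intensity of 11.89, 12.21 and 11.35 on the null arrays and 12.41, 12.15 and 12.11 on the wild-type arrays. Splotch null 2 lay above 2 wild-type arrays, and the difference was -0.41 (SE 0.23). It was -1.06 within the brightest pair and -0.08 over the remaining 4 arrays, and ran from -0.60 to -0.17 with 1 array left out. Its relative Msx2 differed by 0.01 (SE 0.44). Tgif1, a nuclear repressor that binds Smads, had 10.77, 10.70 and 10.91 on the null arrays and 10.74, 10.53 and 10.61 on the wild-type arrays, a difference of 0.16 (SE 0.12). Its relative Tgif2 had 10.30, 10.01 and 10.05 on the null arrays and 10.10, 10.32 and 10.43 on the wild-type arrays, a difference of -0.16 (SE 0.14). For both genes the genotypes overlapped by 1 array of each, wild type 1 lying between the null arrays for Tgif1 and Splotch null 1 between the wild-type arrays for Tgif2. The BMP antagonist Sostdc1 had 7.63, 7.82 and 7.59 on the null arrays and 8.0, 7.71 and 7.79 on the wild-type arrays, a difference of -0.15 (SE 0.14). The TGF-beta target Pmepa1 had 7.55, 7.47 and 7.07 on the null arrays and 7.01, 6.93 and 7.52 on the wild-type arrays, a difference of 0.21 (SE 0.21). Both overlapped between the genotypes. Amhr2, the receptor of anti-Mullerian hormone, had 6.67, 6.70 and 6.43 on the null arrays and 6.59, 6.37 and 6.43 on the wild-type arrays, and differed by 0.14 (SE 0.13). The nodal antagonists Lefty1 and Lefty2 were not above background on any array.

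Marker lists of tissues in the dissected part were set beside these values, and their part in the values of Bmp3, Bmp7, Nog and Id4 was not tested. Of 8 tested markers of migrating neural crest, 7 had a lower mean in Splotch null and 2 of these an unadjusted p under 0.05, where 0.422% of all genes were lower with such a p. Their mean log2 intensity, over 7 genes measured on all arrays, lay between 8.25 and 8.42 in Splotch null and between 8.57 and 8.70 in wild type. Of 12 tested surface ectoderm markers, 10 were lower and 2 had such a p, with a mean over 11 genes between 9.48 and 9.82 in Splotch null and between 9.74 and 10.06 in wild type. The ranges of the crest list did not overlap and those of the ectoderm list did. For the roof plate and dorsal neural tube, 6 of 11 markers were higher and 5 lower, with means between 9.54 and 9.87 in Splotch null and between 9.71 and 9.89 in wild type, and Pax7 was above background on no array. All 7 markers of intermediate mesoderm had a higher mean in Splotch null and 2 of them, Pax8 and Wt1, an unadjusted p under 0.05, where 1.01% of all genes were higher with such a p. Their list had means between 7.75 and 7.91 in Splotch null and between 7.27 and 7.57 in wild type. Pax8 lay above background on 3 null arrays and on no wild-type array, so the null arrays alone were enough for it to be tested. Of 10 tested somite markers, 7 had a lower mean in Splotch null and 1 of them such a p, with means over 9 genes between 8.67 and 9.13 in Splotch null and between 8.81 and 9.34 in wild type. All 8 endothelial markers had a lower mean in Splotch null, with Emcn at -0.0012 and Cdh5 at -0.0040. All 6 tested markers of primitive blood had a higher one. None of either list had such a p, and the ranges of both lists overlapped. The mean of the blood list was highest on wild type 1, at 12.03. It was 10.72 and 10.58 on the other wild-type arrays and 11.27 to 11.56 on the null arrays. Beside all these counts, 45% of all genes had a lower mean in Splotch null. Without Splotch null 2, the array with the highest yolk sac markers, Bmp3 differed by -0.63, Bmp7 by -0.68, Nog by -0.27 and Id4 by 0.33.

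**Figure D5:**
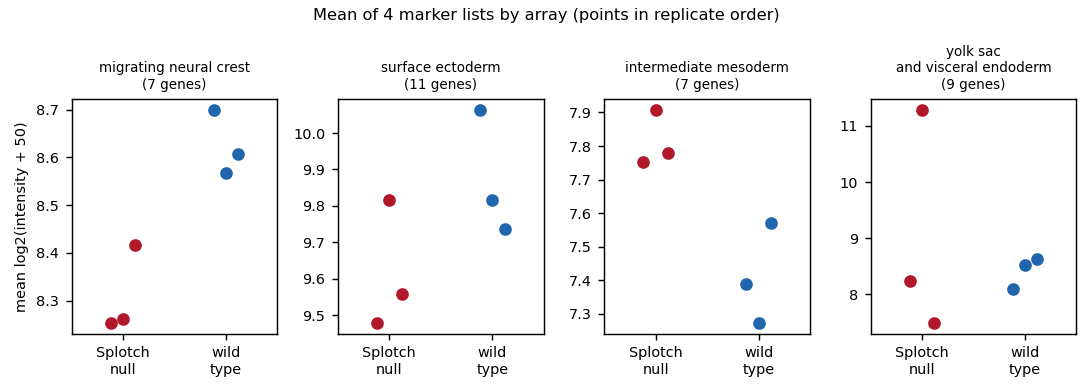
Mean log2(intensity + 50) of the markers of migrating neural crest, surface ectoderm, intermediate mesoderm and yolk sac with visceral endoderm on each array, Splotch null on the left and wild type on the right of each panel. The mean of the crest markers was lower, and that of the intermediate mesoderm markers higher, on every null array than on every wild-type array. Single genes of both lists overlapped. The mean of the yolk sac markers reached 11.28 on Splotch null 2. The vertical axes do not start at 0.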

How the data were processed

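Biotin-labelled cRNA was made by Eberwine amplification, per the labels' protocols. Arrays were read with CodeLink Expression Analysis 5.0.0.31312, per the file headers, which give no batch. The authors deposited a raw intensity per spot, already background-subtracted by a method not given in the sources used here, and an intensity divided by the array's median. The authors' value table is the same normalized intensity scaled by a factor of 0.996 to 1.0035, fixed for each array. Scale and centring were thus found, and all its column medians were 1.0363. Usable spots carried the flag G for good, L for near background or S for saturated, and 277 to 422 spots per array were left out. Array medians were 3.87 to 5.72 times the negative controls, and 6 arrays limit the precision.

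Raw intensity was floored at 0, and its log2 after adding 50 was quantile-normalized. Probes with flag G or S on at least 3 arrays, 24466 in all, were fitted by limma 3.58.1 (R 4.3.3), two-sided, with Benjamini-Hochberg adjustment. The procedure was tested on simulated data. Genes were represented by their probe with the highest mean, whatever their other probes showed. Names came from GEO's platform annotation, updated to GRCm38.p6 by gene identifier (21487 probes), from platform symbols (128), from accessions (536) or from the reports' description, as for Smad7 and Gdf11. Probes with several symbols (681) or none stayed unnamed. Control spots entered no comparison. Figures used matplotlib 3.10.9.

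The members and lists were chosen with earlier results of these data known. Values on every array were given for up to 5 ligands, 4 receptors, 5 antagonists, 4 Smads and 4 Id genes with the smallest p, Bmp4, Bmp7, Pax3 and up to 6 other pathway genes. Bmp2, Tgfb1, Gdf6 and Msx2 were added after their values were seen. Alternatives were other normalizations, the authors' processed values, offsets of 10 and 200, other filters, normexp, other variance models, weighted arrays, averaging over the probes of a gene, array brightness as a covariate and arrays left out.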

Additional observations from a re-analysis of the deposited data

How the results depend on the processing

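No member passed an adjusted p of 0.05 under any of the 20 alternatives run, and Bmp3 and Bmp7 were lower and Id4 higher in Splotch null under each that tested them. Where arrays were left out, these signs were fixed in advance, because the genotypes of these genes did not overlap. The lowest adjusted limma p over the alternatives was 0.122 for Bmp3, 0.122 for Bmp7, 0.387 for Nog and 0.162 for Id4. For Bmp3 and Bmp7 it came from the array weights, whose estimate stopped before it converged. Under them 0.122 was the lowest adjusted p of any gene, and 19.6% of all genes had an unadjusted p under 0.05. The members with an unadjusted p under 0.05 numbered 3, but 10 with array weights, where 19.6% of all genes had such a p, and 6 with log2 array median as covariate (4.72% of all genes). Leaving out 1 array gave 1 to 3, where 0.809% to 3.89% of all genes had such a p, with 1 without Splotch null 1 or without wild type 1. Non-overlapping members numbered 4 (5.09% of all genes). They numbered 3 with the probes of a gene averaged (5.25% of all genes), where Bmp7 overlapped. With the filter on all 6 arrays, where Id4 was not tested, they also numbered 3 (4.87%). With cyclic loess (5.15%) and without a filter (6.15%) they numbered 5. Without the 2 brightest arrays they numbered 21, where 33.9% of all genes did not overlap. With 1 array left out they numbered 4 to 13 (9.44% to 25.5% of all genes, the highest of both without Splotch null 3). Fewer arrays overlap less often by construction. Other pathway genes with an unadjusted p under 0.05 numbered 0, where 1.43% of all genes had such a p. They numbered 8 with array weights (19.6% of all genes) and 1 without a filter (1.82% of all genes). With 1 array left out they numbered 0 to 1 (0.809% to 3.89% of all genes).

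The median of the members, -0.07, was -0.0027 with array weights, where that of all genes was 0.039. It was -0.11 to -0.019 with 1 array left out, -0.019 being without Splotch null 2. That of the antagonists and modulators, -0.17, was -0.27 with an offset of 10, -0.069 with 200 and -0.22 to -0.096 with 1 array left out, -0.096 being without Splotch null 1. That of the ligands, -0.10, was -0.0078 with array weights and -0.10 to -0.019 with 1 array left out, the highest being without wild type 3. Over all alternatives the medians of the remaining classes fell on both sides of 0. They ran from -0.071 to 0.041 for the receptors, from -0.11 to 0.12 for the Smads and from -0.10 to 0.27 for the Id genes. Values on the other side of 0 were 0.044 (array weights) and 0.16 (without the 2 brightest arrays) for Bmp4, -0.052 for Id3 with the brightness covariate, 0.13 for Smad3 with array weights, and -0.053 for Pax3 and 0.062 for Tgfb2 without the 2 brightest arrays. With 1 array left out, Acvr1 lay between -0.24 and 0.045, Bmp10 between -0.34 and 0.0085, Bmp4 between -0.27 and 0.093, Id1 between -0.55 and 0.18, Id2 between -0.0091 and 0.16, Id3 between -0.19 and 0.37, Pax3 between -0.050 and 0.35, Smad3 between -0.22 and 0.013, Smad5 between -0.40 and 0.11, Smad6 between -0.033 and 0.30 and Tgfbr3 between -0.019 and 0.15. The cause was not tested, and the estimate of the array weights stopped before it converged. Id4 was not tested with the filter on all 6 arrays, having too few arrays above background. No paired analysis was possible because the labels give the samples of the 2 genotypes no shared replicate numbers.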
